A study of Saccharomyces cerevisiae W303 with 4 samples.

Results

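Solo long terminal repeats (LTRs) are the single repeats left in the yeast genome where the body of a Ty retrotransposon has been lost. They were taken from the R64 annotation of Saccharomyces cerevisiae as every LTR on the 16 nuclear chromosomes that does not overlap an annotated Ty element. This gave 284 of 384 nuclear LTRs. The other 100 overlap at least 1 of the 50 annotated Ty elements. Solo LTRs span 78036 bases, which is 0.646% of the nuclear genome. Of the 284 repeats, 212 were delta, 37 sigma, 29 tau and 6 omega repeats.

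Each repeat was set against the peaks of a ChIP-seq experiment on Zuo1, a chaperone of the J-protein family that acts at the ribosome and has also been described in the nucleus. The cells were W303 yeast that carried Zuo1 with a C-terminal Myc tag at its own locus, and asynchronous cultures were crosslinked with formaldehyde. The experiment comprised 2 libraries of Myc-immunoprecipitated (IP) DNA and 2 of input DNA, all from the tagged strain. An untagged strain was not analysed here. The authors pooled the libraries into 1 peak list, so that no value per replicate was at hand and no test over samples could be made. All shares below are therefore descriptions of this list, and repeats are not replicates of the experiment. The reference sequence comes from strain S288C, and whether each repeat is present in W303 was not tested.

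An LTR retrotransposon carries a copy of the same repeat at each end, and recombination between them removes the coding part and leaves a solo LTR. Delta repeats derive from Ty1 and Ty2, sigma from Ty3, tau from Ty4 and omega from Ty5. Ty1 to Ty4 insert upstream of genes that RNA polymerase III transcribes, above all tRNA genes. Ty3 does so with the greatest precision, next to the start of transcription, whereas Ty5 goes to silent chromatin at chromosome ends and mating type loci.

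One repeat of each family is printed to show what a peak could cover, read 5′ to 3′ on the repeat's own strand in build R64 (sacCer3). For delta, sigma and tau it is the repeat of near full length with the strongest peak, cut to its first 300 bases. For omega, which had no peak, it is the longest. Capitals mark TGAAACA or its reverse complement TGTTTCA, the pheromone response element that the transcription factor Ste12 recognises.
delta chrV:442734-443033 (+ strand): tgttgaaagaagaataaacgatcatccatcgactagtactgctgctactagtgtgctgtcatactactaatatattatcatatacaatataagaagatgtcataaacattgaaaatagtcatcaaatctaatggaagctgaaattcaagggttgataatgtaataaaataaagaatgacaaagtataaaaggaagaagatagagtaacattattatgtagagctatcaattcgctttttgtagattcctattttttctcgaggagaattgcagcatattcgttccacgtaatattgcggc
sigma chrXII:793552-793851 (+ strand): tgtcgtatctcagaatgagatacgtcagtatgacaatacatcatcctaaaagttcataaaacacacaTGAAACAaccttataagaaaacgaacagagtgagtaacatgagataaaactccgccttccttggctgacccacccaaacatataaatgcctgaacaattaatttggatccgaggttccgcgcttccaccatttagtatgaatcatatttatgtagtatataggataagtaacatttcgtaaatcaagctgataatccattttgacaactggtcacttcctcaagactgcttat
tau chrII:35922-36221 (− strand): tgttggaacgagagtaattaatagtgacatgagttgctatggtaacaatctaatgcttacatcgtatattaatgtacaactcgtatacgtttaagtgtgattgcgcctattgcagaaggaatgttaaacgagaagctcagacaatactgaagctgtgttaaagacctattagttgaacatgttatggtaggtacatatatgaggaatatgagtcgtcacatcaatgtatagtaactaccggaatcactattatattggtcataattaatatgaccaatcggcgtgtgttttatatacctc
omega chrIII:291922-292167 (+ strand): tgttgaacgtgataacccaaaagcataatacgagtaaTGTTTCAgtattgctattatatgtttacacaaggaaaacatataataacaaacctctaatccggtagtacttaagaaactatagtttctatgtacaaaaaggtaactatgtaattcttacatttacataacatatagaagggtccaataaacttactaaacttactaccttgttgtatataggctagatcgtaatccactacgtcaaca

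Within these sequences the families differed in composition. The median GC content was 30.6% for delta, 35.2% for sigma, 32.3% for tau and 30.1% for omega, and all lay below the 38.1% of consecutive nuclear tiles of 320 bp, the median length of a solo LTR. TGAAACA was found on either strand in 32 of 37 sigma repeats (86.5%), in 57 of 212 delta repeats (26.9%), in 3 of 6 omega repeats and in 2 of 29 tau repeats (6.90%). It was in 8.50% of the nuclear tiles. Of the sigma repeats with the element 24 of 32 lay under a peak, and of those without it 3 of 5 did. None of the 284 repeats held a G-quadruplex (G4) motif, defined as 4 runs of at least 3 G with 1 to 25 bases between them on either strand, while 530 of 37716 tiles (1.41%) held one.

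Zuo1 peaks covered solo LTRs more often than tiles of the same length. A peak touched 115 of the 284 repeats (40.5%) by at least 1 bp, against 12.1% of the tiles. Counted by bases, 23.3% of solo LTR sequence lay in a peak, against 8.39% of the nuclear genome. The fold enrichment of the strongest peak over a repeat, which the authors computed at the summit as IP over local background, ranged from 1.58 to 12.3 with a median of 2.33. The peaks were thus frequent but mostly weak. Only 12 repeats (4.23%) had a peak of 3-fold or more, which was close to the 4.45% of tiles.

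The 115 repeats were covered by 101 peaks, of which 85 covered 1 repeat and 16 covered 2. These peaks were compared with all 1543 nuclear peaks. Their median fold enrichment was 2.35 against 2.44, and 11 of 101 (10.9%) reached 3-fold against 463 of 1543 (30.0%). They were longer, with a median of 499 bp against 426 bp, but a longer peak has more bases for an overlap with a repeat. The median was 518 bp for the 79 that also covered a tRNA gene and 1267 bp for the 12 that also covered a Ty element. For the 16 that covered neither it was 384 bp. At the summit the 101 peaks held a median of 88 IP fragments over a local background of 38.1, against 92 over 36.7 for all nuclear peaks. These fragment numbers were worked back from each peak's fold enrichment and p-value.

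Sigma repeats were covered most often and omega repeats never. A peak lay over 27 of 37 sigma repeats (73.0%), 83 of 212 delta repeats (39.2%), 5 of 29 tau repeats (17.2%) and 0 of 6 omega repeats, against the 12.1% of tiles. Within delta, 77 of 202 repeats annotated as Ty1 (38.1%) and 6 of 10 annotated as Ty2 had a peak. Fold enrichment did not follow this order. Its median was 2.34 for delta (range 1.65 to 12.3), 2.17 for sigma (1.58 to 4.31) and 2.38 for tau (2.27 to 5.67). A peak of 3-fold or more lay over 9 delta, 1 sigma and 2 tau repeats.

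**Figure D1:**
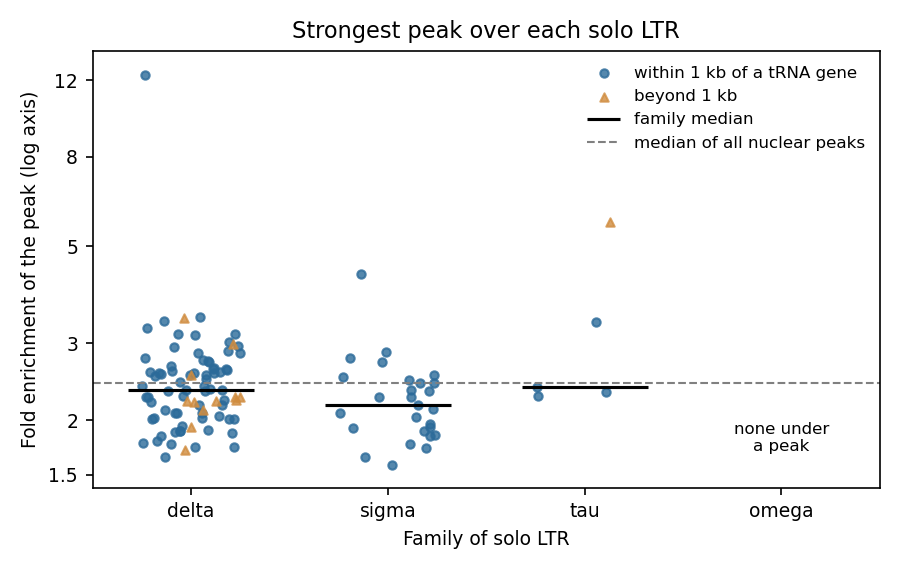
Fold enrichment (log axis) of the strongest Zuo1 peak over each of the 115 solo LTRs under a peak, by family, with circles for repeats within 1 kb of a tRNA gene and triangles for those beyond. Black lines are family medians (2.34 for delta, 2.17 for sigma, 2.38 for tau), the dashed line is the median of all nuclear peaks (2.44), and most repeats lie below 3-fold.

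The peaks also covered the families to unequal depth. In repeats under a peak, the median covered length was 77.9% of the repeat for sigma, 59.3% for delta and 13.2% for tau. Of the 5 tau repeats, chrVII:931171-931540 had 5 bases in its peak and chrV:436279-436605 had 7. Where 50% or more of the repeat had to lie in peaks, 70 of 284 repeats (24.6%) remained against 8.48% of tiles. These were 48 delta, 20 sigma and 2 tau repeats, and 29 repeats were covered from end to end.

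The repeats of different families do not lie at the same distance from tRNA genes. Of the 284 solo LTRs, 221 were within 1 kb of 1 of the 275 nuclear tRNA genes, and 210 of these were upstream of the tRNA gene. Of the 37 sigma repeats 31 ended between 14 and 18 bp from a tRNA gene, and all 34 within 1 kb were on its upstream side. The median gap over all repeats of a family was 16 bp for sigma, 328 bp for delta and 454 bp for tau. The class of over 100 to 250 bp held the largest number of delta and of tau repeats. All 6 omega repeats were beyond 1 kb, and 5 of them lay in the terminal 20 kb of a chromosome.

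The junction between a sigma repeat and its tRNA gene is shown for the 3 near pairs with the strongest peaks and for 2 pairs without a peak. Each is read along the strand of the tRNA gene. Capitals mark the last 25 bases of the repeat, and the lower case letters are the gap and the first 25 bases of the tRNA gene.
sigma chrXII:793846-793942 (+ strand, tRNA-Asp): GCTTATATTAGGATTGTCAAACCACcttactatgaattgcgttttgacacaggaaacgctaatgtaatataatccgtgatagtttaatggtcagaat
sigma chrXII:656982-657046 (− strand, tRNA-Ala): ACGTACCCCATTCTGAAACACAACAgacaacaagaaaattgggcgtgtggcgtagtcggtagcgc
sigma chrIV:1175788-1175853 (+ strand, tRNA-Met): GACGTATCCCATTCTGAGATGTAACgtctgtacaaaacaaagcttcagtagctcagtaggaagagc
sigma chrV:250246-250310 (+ strand, tRNA-Gln): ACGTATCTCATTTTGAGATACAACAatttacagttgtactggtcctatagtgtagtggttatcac
sigma chrVII:736298-736364 (+ strand, tRNA-Arg): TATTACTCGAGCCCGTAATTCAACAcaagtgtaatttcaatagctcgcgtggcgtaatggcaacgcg

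The gap was 47 bp beside the tRNA-Asp gene on chromosome XII, and 15 bp, 16 bp, 15 bp and 17 bp in the other 4 pairs. In the first 3 pairs the tRNA gene lay under a peak as well, with 4.31-fold, 2.86-fold and 2.77-fold enrichment of the strongest peak over the repeat. In the last 2 neither the repeat nor the tRNA gene did. For the first 2 pairs the summit of the peak over the repeat lay outside both the repeat and the tRNA gene.

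Repeats near a tRNA gene had a peak more often than repeats farther away. Within 1 kb 102 of 221 (46.2%) were under a peak, and beyond 1 kb 13 of 63 (20.6%), a difference of 25.5 percentage points. Tiles within 1 kb had a peak in 32.3% and tiles beyond in 11% of cases. Tiles within 1 kb that do not overlap a tRNA gene themselves, a set chosen after the values were seen because at most 1 repeat overlaps or touches a tRNA gene, had a peak in 22.9%. For delta the shares were 71 of 165 (43.0%) near and 12 of 47 (25.5%) far. For sigma they were 27 of 34 (79.4%) and 0 of 3. Of the 34 near sigma repeats 33 had a gap of up to 100 bp, and 27 of these (81.8%) had a peak, against 71.3% of tiles off tRNA genes at that gap. Delta repeats at that gap had a peak in 18 of 28 cases (64.3%), below the tiles. Tau had 4 of 22 (18.2%) near and 1 of 7 far, so that the tau share near tRNA genes was below that of the tiles. The repeats on either side of the limit, delta chrV:249109-249331 with a gap of 954 bp and delta chrV:137324-137639 with a gap of 1026 bp, both had no peak.

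**Figure D2:**
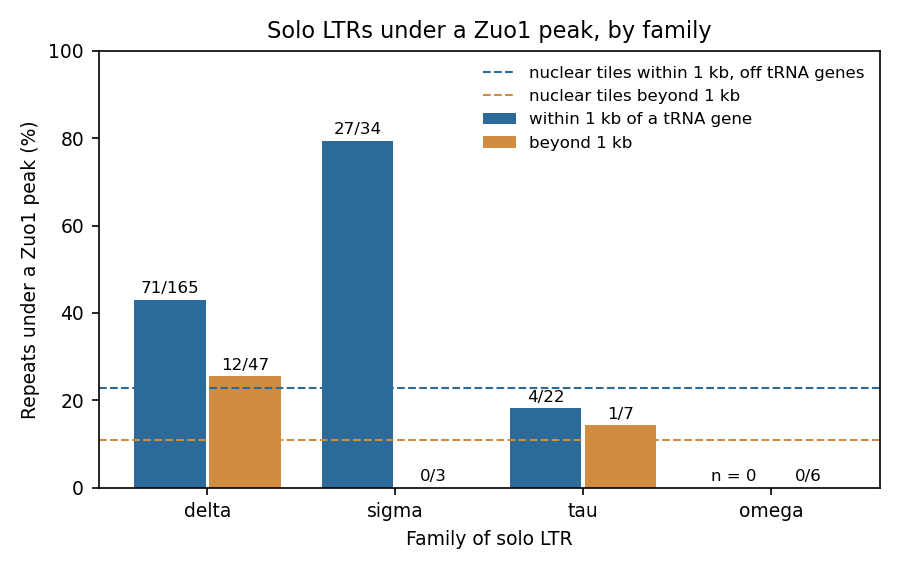
Percent of solo LTRs of each family under a Zuo1 peak, within (blue) and beyond (orange) 1 kb of a tRNA gene, with the count over each bar. Dashed lines give nuclear tiles of 320 bp within 1 kb but off tRNA genes (22.9%) and beyond 1 kb (11%), and sigma repeats near a tRNA gene stand highest at 27 of 34. Nearly all of these sigma repeats have a gap of up to 100 bp, where 71.3% of tiles off tRNA genes have a peak.

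The share under a peak fell with distance up to 1 kb. It was 46 of 62 (74.2%) at a gap of up to 100 bp, 41 of 77 (53.2%) at over 100 to 250 bp, 12 of 44 (27.3%) at over 250 to 500 bp and 3 of 38 (7.89%) at over 500 to 1000 bp. Tiles off tRNA genes at the same gaps gave 71.3%, 37.1%, 16.8% and 11.3%. Within 1 kb the repeats thus exceeded the tiles by most between 100 and 500 bp. Beyond 1 kb the shares were 5 of 19 up to 5 kb and 8 of 44 (18.2%) farther away, against 13.8% and 10.5% of tiles. At over 100 to 250 bp 39 of 67 delta repeats (58.2%) but 2 of 10 tau repeats had a peak, at median lengths of 328 and 370 bp.

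**Figure D3:**
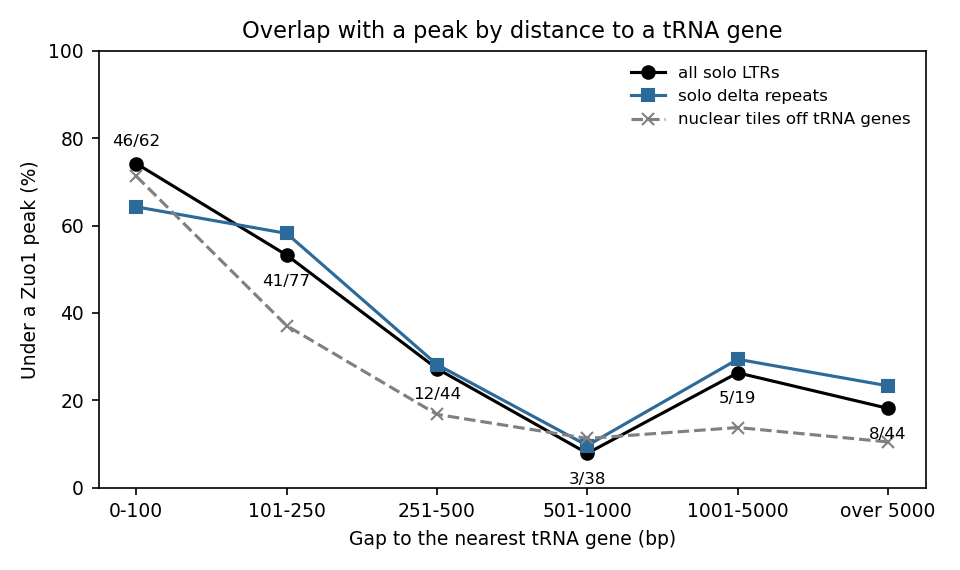
Percent of all solo LTRs (circles, with counts) and of solo delta repeats (squares) under a Zuo1 peak by the gap in bp to the nearest tRNA gene, beside nuclear tiles of 320 bp that do not overlap a tRNA gene (crosses). The shares fall from 46 of 62 at up to 100 bp to 3 of 38 at over 500 to 1000 bp.

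Whether a near repeat was covered went along with its tRNA gene. Where the nearest tRNA gene was under a peak, 96 of 163 repeats (58.9%) were too, and where it was not, 6 of 58 (10.3%) were. The same split was 67 of 122 (54.9%) and 4 of 43 (9.30%) for delta, 25 of 26 and 2 of 8 for sigma, and 4 of 15 and 0 of 7 for tau. Within 250 bp of a tRNA gene under a peak, all 25 sigma repeats, 56 of 74 delta repeats (75.7%) and 3 of 6 tau repeats were covered. Of the 102 near repeats under a peak, 90 (88.2%) shared their strongest peak with a tRNA gene. A single peak that spans both cannot tell apart signal at the repeat from signal at the tRNA gene.

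The tRNA genes themselves did not have peaks more often when a repeat was close. A peak lay over 208 of all 275 tRNA genes (75.6%, median 2.40-fold). It lay over 117 of 157 (74.5%, 2.41-fold) with a solo LTR within 1 kb and over 75 of 96 (78.1%, 2.50-fold) with no LTR within 1 kb. Among the tRNA genes nearest to a delta, sigma or tau repeat the shares were 94 of 129 (72.9%), 25 of 33 (75.8%) and 15 of 22 (68.2%).

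Between 100 and 500 bp upstream of tRNA genes, peaks covered more genes where a repeat was present. For tRNA genes without a Ty element within 1 kb, 139 with a solo LTR and 96 without an LTR were compared position by position. At 250 bp upstream of the gene 32.4% of the former and 12.5% of the latter had the base in a peak. At 100 bp upstream the values were 64.7% and 62.5%, and at 500 bp upstream 8.63% and 5.21%. Farther upstream the order turned, with 2.88% and 7.29% at 700 bp and 6.47% and 7.29% at 1000 bp. It turned again beyond that, with 7.91% and 6.25% at 1200 bp and 10.1% and 4.17% at 1500 bp. On the downstream side the order also changed, with 48.9% and 60.4% at 100 bp and 12.9% and 10.4% at 250 bp.

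**Figure D4:**
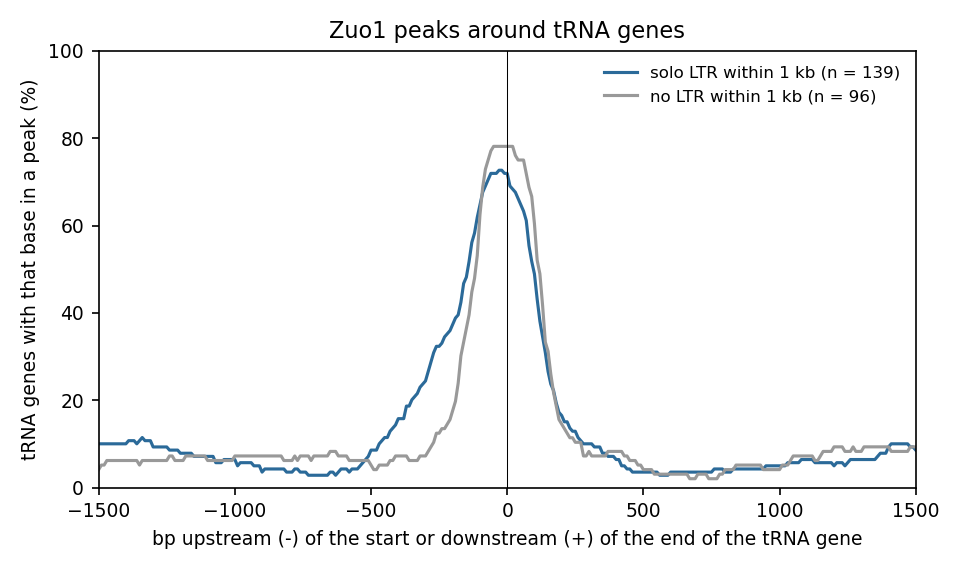
Percent of tRNA genes whose base at a given distance lies in a Zuo1 peak, from 1500 bp upstream (−) of the gene's start to 1500 bp downstream (+) of its end, for 139 genes with a solo LTR within 1 kb (blue) and 96 with no LTR within 1 kb (grey). The blue curve is the higher between 100 and 500 bp upstream, with 32.4% against 12.5% at 250 bp, and the lower at 700 bp.

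Bases between 100 and 500 bp upstream of tRNA genes gave the same order when those within a solo LTR were set beside those in no LTR or Ty element, here without bases near a Ty element. At over 100 to 250 bp 46.4% of solo LTR bases and 33.1% of the other bases were in a peak, and at over 250 to 500 bp 22.4% and 8.40%. Up to 100 bp the order was the opposite, with 69.6% and 72.6%. At over 500 to 1000 bp both were low at 6.23% and 4.71%. Neither GC content nor transcription of the neighbouring gene was matched between these bases.

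Peaks were seldom highest in the repeat. For the 102 near repeats the summit of the strongest peak lay in the nearest tRNA gene in 33 cases, between the repeat and the tRNA gene in 29, within the repeat in 18, beyond the tRNA gene in 17 and beyond the repeat in 5. Within a covered near repeat, the part from the midpoint toward the tRNA gene was in a peak over 69.7% of its bases and the part away from it over 45.8%. For delta these values were 66.7% and 41.8% in 71 repeats, and for sigma 83.1% and 59.3% in 27. Since 90 of the 102 repeats shared their strongest peak with a tRNA gene, such a peak mostly enters the repeat from that side. The order of the 2 parts is thus largely set by taking covered repeats only. Of the repeats upstream of a tRNA gene, 39 of 90 on the same strand (43.3%) and 61 of 120 on the opposite strand (50.8%) were under a peak. Downstream of a tRNA gene 2 of 11 were.

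A summit lay within 21 of the 284 repeats (7.39%), against 4.07% of tiles. These were 14 delta and 7 sigma repeats. Their summits had 1.65-fold to 3.15-fold enrichment with a median of 2.08, and sat between 16.2% and 92.6% of the way from the 5′ end of the repeat, with a median of 54.0%. The 1 summit above 3-fold was in delta chrXVI:436250-436587, at base 183 of 338. That repeat was 285 bp from a tRNA-Cys gene, and its peak of 100 IP fragments over a background of 31.1 covered 96.2% of the repeat and none of the tRNA gene. The same peak covered 67 bases of the adjacent delta chrXVI:436068-436249.

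The sequence around the summit is shown for the 4 delta repeats with the strongest summits, as up to 100 bases on the strand of the repeat with the summit at base 51. Capitals mark TGAAACA.
delta chrXVI:436356-436455 (− strand): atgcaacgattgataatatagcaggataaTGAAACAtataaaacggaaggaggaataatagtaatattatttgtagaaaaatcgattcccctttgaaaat
delta chrIV:1151181-1151280 (+ strand): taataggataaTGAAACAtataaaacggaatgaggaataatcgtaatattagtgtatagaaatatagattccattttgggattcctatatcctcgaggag
delta chrVIII:133824-133923 (+ strand): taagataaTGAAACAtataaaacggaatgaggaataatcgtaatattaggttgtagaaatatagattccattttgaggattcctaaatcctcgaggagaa
delta chrXIII:837677-837764 (+ strand): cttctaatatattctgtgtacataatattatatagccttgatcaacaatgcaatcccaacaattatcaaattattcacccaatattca

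Of these 4 windows 3 held TGAAACA, and the GC content of the 4 ranged from 27.3% to 30%, below the 38.1% of nuclear tiles. The summits had 3.15-fold, 2.61-fold, 2.49-fold and 2.34-fold enrichment in the order shown. The windows were chosen by their summits, so the count of the element in them is given as a description. They are the strongest of 14 delta repeats that held a summit, and the other windows were not counted. Of those other repeats, chrIII:142758-143080, chrVI:137663-137912 and chrXIII:378727-379061 held TGAAACA on either strand somewhere in the repeat. The rest did not hold it anywhere, namely chrII:9425-9518, chrIII:82700-83036, chrIII:84295-84626, chrV:435946-436277, chrV:487834-488165, chrXII:220668-221005 and chrXIII:768548-768879. Over whole repeats, 57 of 212 delta repeats (26.9%) held it.

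The peaks with the highest and the next highest fold enrichment over a solo LTR had their summits in other genes transcribed by RNA polymerase III. Delta chrV:442734-443072 had the highest value, 12.3-fold with 521 IP fragments over a background of 41.3. The summit of that peak was in SCR1, the gene for the RNA of the signal recognition particle, which ends 225 bp from the repeat. The peak ran into 111 of the repeat's 339 bases, and a peak over the tRNA-Ile gene 129 bp away, of 2.46-fold, brought the covered share to 69.3%. Tau chrV:118230-118551 followed with 5.67-fold and 231 IP fragments over 39.9. Here the summit was in RPR1, the gene for the RNA of RNase P, at a gap of 194 bp, and 173 of 322 bases of the repeat were in the peak. Delta chrV:431490-431822, which ranked below a sigma and a delta repeat beside tRNA genes, had 3.43-fold enrichment under a peak over SNR52, a small nucleolar RNA gene 269 bp away, which covered 213 of its 333 bases. In all 3 cases the summit was outside the repeat.

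The remaining strong values were found beside tRNA genes. Sigma chrXII:793552-793870, whose junction is printed above, had 4.31-fold enrichment, but its peak of 1449 bp had the summit beyond the tRNA-Asp gene and also spanned the small nucleolar RNA genes SNR61, SNR55 and SNR57. Only 92 of its 319 bases were covered. Delta chrXI:458140-458471 had 3.44-fold enrichment over 322 of 332 bases, 85 bp from a tRNA-Leu gene, in a peak that reached TOF2, which codes for a nucleolar protein of the rDNA. Delta chrXII:592706-593035 had 3.38-fold enrichment 86 bp from a further tRNA-Leu gene. Tau chrII:35851-36221, the printed tau repeat, had 3.36-fold enrichment with 49 bases covered, 176 bp from a tRNA-Phe gene. Delta chrXV:113294-113626 had 3.25-fold enrichment beside a tRNA-Thr gene. Delta chrV:138221-138553 had 3.14-fold enrichment in a peak of 1968 bp that covered a tRNA-Arg gene and GCN4, the activator of amino acid synthesis genes. Delta chrXII:448842-449028 had 3.02-fold enrichment and was covered whole, 120 bp from a tRNA-Gln gene.

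Below 3-fold, the strongest sigma repeats were chrXII:657022-657365 with 2.86-fold, chrIV:1175134-1175812 with 2.77-fold next to the elongator tRNA-Met gene EMT1, chrXV:854275-854614 with 2.72-fold and chrVII:319423-319762 with 2.53-fold enrichment. All lay 15 to 18 bp from their tRNA gene and were covered over 75.9% to 100% of their length. The peak over chrXII:657022-657365 was 3353 bp long, with its summit at position 655180, beyond the tRNA gene. A Ty element lies 278 bp from that repeat. Sigma chrIV:1175134-1175812, of 679 bp, contains delta chrIV:1175316-1175647, of 332 bp, under the same peak. Tau chrXV:710024-710107, a fragment of 84 bp, was covered whole at 2.38-fold by the peak of the initiator tRNA-Met gene IMT1.

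Beyond 1 kb of a tRNA gene, the 13 covered repeats were 12 delta and 1 tau. Besides the repeats at RPR1 and SNR52, 7 lay under a peak that also covered a Ty element, with 1.93-fold to 2.99-fold enrichment. The strongest of these, delta chrI:160105-160237, shared a peak of 3606 bp with a Ty1 element, and delta chrVII:535607-535759 and delta chrVII:535211-535542 were both covered whole by 1 peak of 2648 bp. The last 4, all delta, had neither in the annotation and ranged from 1.71-fold to 2.22-fold. Among them, delta chrXII:220668-221005 was covered whole and held the summit at base 162, and its neighbour chrXII:221006-221266 had 39 bases in the same peak. Delta chrXII:215080-215417 lies 5250 bp from chrXII:220668-221005. Both are 338 bp long on the same strand, with identities to a delta of a Ty element of 100% and 99.7%. Whether these 2 are the ends of a Ty element that the annotation does not mark was not tested. Far repeats within 1 kb of an annotated Ty element had a peak in 8 of 29 cases (27.6%), and those beyond 1 kb of both in 5 of 34 (14.7%), against 11% of far tiles.

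Near tRNA genes, 12 of the 102 covered repeats had a strongest peak that covered no tRNA gene, from 1.77-fold to 12.3-fold. They include both delta repeats on chromosome XVI and the repeat at SCR1 described above. Sigma chrXVI:880386-880726, 16 bp from its tRNA gene, held the summit of such a peak at 2.26-fold, and delta chrV:487834-488165 was covered whole at 2.02-fold with a summit inside.

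Delta repeats that are least diverged had a peak most often. Divergence was measured as the identity of each solo repeat to its best match among the LTRs of Ty elements of the same family, the median of which was 81.1% for delta, 96.8% for sigma, 75.1% for tau and 78.9% for omega. Of the delta repeats with identity of 95% or more 30 of 47 (63.8%) had a peak, of those from 80% to under 95% 27 of 65 (41.5%), and of those under 80% 26 of 100 (26%). Within 250 bp of a tRNA gene the classes were closer, with 18 of 27 (66.7%), 23 of 38 (60.5%) and 16 of 30 (53.3%). From over 250 to 1000 bp they were 6 of 10, 3 of 18 (16.7%) and 5 of 42 (11.9%), and beyond 1 kb 6 of 10, 1 of 9 and 5 of 28 (17.9%). Of the 10 far repeats of high identity 6 were within 1 kb of an annotated Ty element, and 4 of these had a peak, as had 2 of the other 4. The classes also differed in length and were not matched for it. From high to low identity the median lengths were 332, 315 and 289 bp, and 332, 307 and 243.5 bp at over 250 to 1000 bp.

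**Figure D5:**
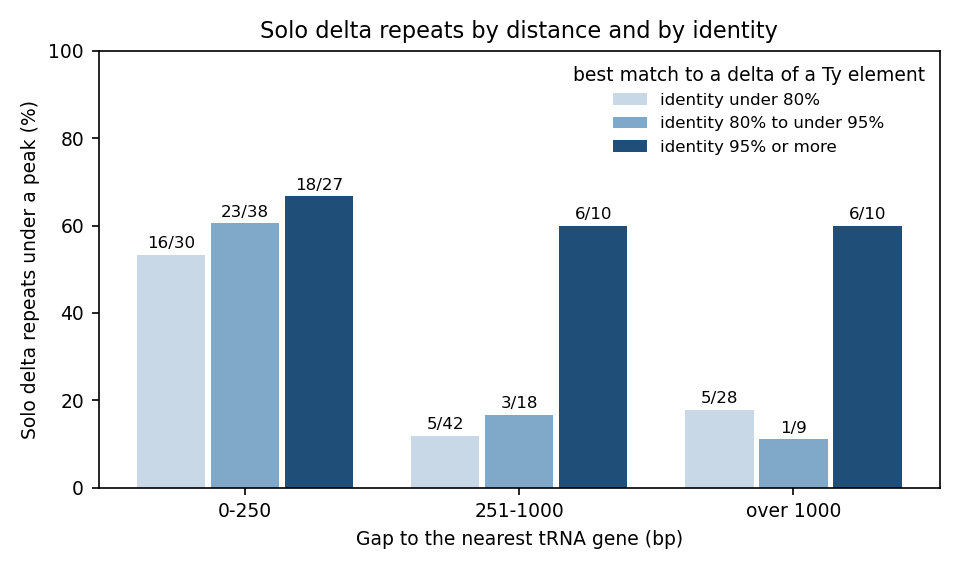
Percent of the 212 solo delta repeats under a Zuo1 peak, in 3 classes of the gap to the nearest tRNA gene and, from light to dark, 3 classes of identity to the best-matching delta repeat of a Ty element, with counts over the bars. Repeats of 95% identity or more have 6 of 10 under a peak at over 250 to 1000 bp and beyond 1000 bp, where those under 80% have 5 of 42 and 5 of 28.

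Close copies of a repeat also limit how reads are placed. A read of 64 bases that matches several repeats cannot be assigned to 1 of them, and how the aligner treated such reads is not given in the sources used here. Uniqueness was scored over the 64-base words that start in a repeat. Words near its edge run into flanking sequence, and a repeat shorter than 64 bases has only such words. Of the 284 repeats 170 had only words that occur once in the whole reference on either strand. Of these 170 repeats 53 (31.2%) were under a peak. The share was 28 of 62 (45.2%) where 50% to under 100% of words were unique, and 34 of 52 (65.4%) where under 50% were. For delta the 3 shares were 41 of 135 (30.4%), 19 of 43 (44.2%) and 23 of 34 (67.6%). The order held for delta repeats within 250 bp of a tRNA gene, with 30 of 55 (54.5%), 13 of 20 (65%) and 14 of 20 (70%). The part of read placement in these shares was not tested, and identity and uniqueness cannot be told apart in this list.

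Repeat length did not give a simple order. Of the 17 repeats under 100 bp 12 (70.6%) were under a peak, against 9.39% of tiles of their median length, 79 bp. The shares were 9 of 46 (19.6%) at 100 to under 200 bp, 11 of 53 (20.8%) at 200 to under 300 bp and 83 of 168 (49.4%) at 300 bp or more, against 10.2%, 11.4% and 12.2% of tiles of their own median lengths. The distance to a tRNA gene moved with length, since the median gaps of the 4 classes were 121, 462.5, 563 and 185 bp. Of the repeats under 100 bp 8 of 17 lay within 100 bp of a tRNA gene. When only the midpoint of the repeat counted, 10 (58.8%), 5 (10.9%), 7 (13.2%) and 47 repeats (28.0%) were under a peak, in the same order of classes. Of all nuclear bases 8.39% were in a peak, so the 2 middle classes lay close to the genome.

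Compared with the LTRs that overlap a Ty element, here called element LTRs, solo LTRs were covered less often. A peak lay over 77 of the 100 element LTRs (77%, median 2.11-fold) and over 46 of the 50 elements (92%). A whole element is longer than an LTR, which gives more bases for an overlap of 1 bp. Tiles of element length were not counted, so the share of elements is not comparable with that of repeats. By family these were 73 of 87 delta repeats (83.9%), 4 of 5 sigma, 0 of 6 tau and 0 of 2 omega repeats, so that in both sets tau and omega repeats had fewer peaks than delta and sigma repeats. Solo LTRs within 1 kb of both a tRNA gene and a Ty element had a peak in 17 of 27 cases (63.0%), and those near a tRNA gene alone in 85 of 194 (43.8%). Across chromosomes the share ranged from 3 of 20 on chromosome VIII to 13 of 22 on chromosomes IV and XII.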

How the data were processed

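The authors aligned single-end reads of 64 bases to sacCer3 with bowtie (Bowtie2 in the submitters' processing notes) and called narrow peaks of the pooled IP over input libraries with MACS2 at a q-value of 0.05. The MACS command given with the study puts 1 of the input libraries with the treatment and 1 of the IP libraries with the controls. IP as treatment was assumed here, and the meaning of fold enrichment rests on this. The header of the deposited list names other columns than the values hold, so columns were read by position. The deposited list gives, at each summit, the fold enrichment (ratio of IP to local background), the −log10 p-value, the −log10 q-value and a score of 10 times the −log10 q, rounded down by the authors. No other per-sample column was found. Library depths were not in the list and are not used here.

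Repeats, Ty elements, tRNA genes and sequences were those of RefSeq R64. A repeat counted as under a peak with 1 bp of overlap, and its value is the strongest such peak. Some annotated repeats lie inside another, such as delta chrIV:1175316-1175647 in sigma chrIV:1175134-1175812, and each was counted. With repeats within 50 bp merged, 104 of 237 (43.9%) were under a peak. Gaps were counted in bp between the nearest edges. The background is the share of 37716 consecutive nuclear tiles of 320 bp under a peak. IP fragments and background were recovered from fold enrichment, taken as (IP + 1)/(background + 1), and the Poisson p-value. Recovered fragments were within 0.05 of a whole number in 100% of peaks. Identity is that of the best local alignment to an LTR of a Ty element. Scripts were tested on simulated data. Python 3.11.15, NumPy 2.4.6, pandas 2.3.3, Biopython 1.88 and matplotlib 3.10.9 were used.

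Named repeats are the 5 with the highest fold enrichment in each family, the 10 highest within and the 10 highest beyond 1 kb of a tRNA gene, those with a summit of 3-fold or more inside, and the pair on either side of 1 kb. A few further repeats are named from counts, after their values were seen. The members and lists were chosen with earlier results of these data known. Alternatives were a fold enrichment of at least 3, a q-value of 0.001, 50% of the repeat covered, a summit or the midpoint in place of 1 bp, repeats of 200 bp or more, repeats within 50 bp merged, the terminal 20 kb left out, repeats with at least 50% unique 64-base words, peaks over tRNA genes left out, and limits of 500 bp and 2 kb.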

Additional observations from a re-analysis of the deposited data

How the results depend on the processing

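Of 68 values under alternatives, 38 stayed within the set margin, 29 moved and 1 turned its direction. With peaks of 3-fold or more, the shares fell to 4.23% of all, 4.25% of delta, 2.70% of sigma and 6.90% of tau repeats, to 0%, 4.35%, 0% and 5.95% of the length classes in rising order, to 1% of element LTRs, 4% of Ty elements and 9.09% of tRNA genes, and to 0.352% of repeats with a summit inside. The difference between near and far repeats was then 1.35 percentage points. With 50% of the repeat covered, the shares were 24.6% of all, 22.6% of delta, 54.1% of sigma and 6.90% of tau repeats. With a summit inside they were 7.39%, 6.60%, 18.9% and 0%, and the near-far difference was 5.42 points. With the midpoint in a peak, 28.0% of repeats of 300 bp or more remained. Among repeats with at least 50% unique words 34.9% were under a peak. With a limit of 500 bp the near-far difference was 38.3 points.

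Without peaks that also cover a tRNA gene, 9.15% of all repeats were under a peak, against 10.7% of tiles, with 10.8% of delta, 5.41% of sigma and 3.45% of tau repeats. The near-far difference then became −14.8 points, with 5.88% of near and 20.6% of far repeats, as this alternative removes peaks near tRNA genes by construction. No paired analysis was possible because the IP and input libraries were pooled into 1 list, in which replicate numbers have no values. For the same reason no replicate could be left out. Small classes, such as 6 omega and 29 tau repeats, limit how far family shares can be compared, and the peak list gives no signal for repeats below its threshold.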
